A study of Rattus norvegicus with 9 samples.

Results

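All 6 libraries of arthritic rats in the series were compared with its 3 normal libraries, to ask how blood CD4+ T cells of arthritic rats differed from normal whether or not the rats had been treated. The comparison used 9 of 9 libraries. The arthritic libraries were those of the model group (3) and of the combination group (3), and both groups weighed equally whatever the treatment did between them. All rats were of the SD strain and aged 8 to 10 weeks, and no genetic change is named in the labels for any group. The normal group was taken as untreated rats without arthritis, the model group as untreated CIA rats and the combination group as CIA rats given a compound combination over 4 weeks. CIA was read as collagen-induced arthritis, a model in which immunisation with collagen leads to joint inflammation, because the series concerns rheumatoid arthritis. The labels name neither the compounds nor their doses. Every library held total RNA of CD4+ T cells from peripheral blood, and how these cells were selected is not described. The labels do not state that the libraries came from separate animals, so p-values below measure the spread between these libraries. The file headers of the combination libraries name samples in another way than the labels do, and whether they were prepared apart from the others was not given.

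NF-kB is a family of dimeric transcription factors that is held in the cytoplasm by inhibitor proteins and is released when antigen receptors or receptors of the TNF family are engaged. Its subunits p100 (Nfkb2) and RelB form the non-canonical branch, and several of its own inhibitors are among its target genes, which gives the pathway negative feedback. ATF4 is a transcription factor whose protein is made when cells lack amino acids or accumulate unfolded proteins, and its targets include aminoacyl-tRNA synthetases, amino acid transporters and enzymes of serine synthesis. CD4+ T cells direct the immune response in arthritis, and both pathways are known to act in activated T cells.

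The aligned depth was 7.52 to 10.1 gigabases per library. On the first principal component of log2(TPM + 1), which held 27.7% of the variance, the normal libraries lay at -40.4 to -30.9 and the arthritic libraries at -3.87 to 57.4. Model replicate 2 lay at 0.257, between the combination libraries, while model replicates 1 and 3 lay at 39.3 and 57.4. On the second component, with 22.2% of the variance, the combination libraries lay apart from all others, at -42.4 to -33.6. There the normal libraries lay at 11.3 to 19.7 and model replicates 1, 2 and 3 at 11.6, 26.6 and 27.9. TPM is a transcript's abundance corrected for its length, summed here per gene. Cd4 was 202, 230 and 235 TPM in the normal, 76.5, 186 and 99.1 TPM in the model and 142, 121 and 98.1 TPM in the combination libraries. The log2 fold change of Cd4 was -0.93 (adjusted p = 0.0648 in limma, a linear model with moderated variances). Cd8a, the co-receptor of cytotoxic T cells, lay between 2.47 and 9.17 TPM over the 9 libraries, and Cd79a, of the B cell receptor, between 1.48 and 11.2 TPM.

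The test covered 14175 genes whose mean over the 9 libraries reached 1 TPM, and 558 of them differed between arthritic and normal libraries at an adjusted p under 0.05 (limma, Benjamini-Hochberg), which is 3.94% of the genes tested. The 284 higher genes were 2% and the 274 lower genes 1.93% of those tested, the background for risen and fallen members of gene lists below. Changes of at least 2-fold on the log2(TPM + 1) scale numbered 157 and 131. The median log2 fold change was 1.09 over the higher and -0.99 over the lower genes, beside 0.024 over all genes tested. The 6 arthritic libraries did not overlap the 3 normal ones in 469 of the 558 genes, and in 12.9% of all genes tested (7.05% with the arthritic libraries above and 5.82% with them below). The lower genes included short and unnamed transcripts: 30.7% were loci without a gene name and 15.3% were under 300 bases, against 10.9% and 3.17% of the higher genes and 20.3% and 5.42% of all genes tested. Their median length was 1698 bases and their median level 6.05 TPM, beside 3220 bases and 25.3 TPM for the higher genes and 2447 bases and 10.4 TPM for all genes tested. At an unadjusted p under 0.05 in limma, 15.2% of all genes tested were higher and 12.6% lower, the background for the unadjusted counts of gene lists below.

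The number of genes past the threshold depended on single libraries. Leaving out normal replicates 1, 2 and 3 in turn left 37, 7 and 22 genes, and the number was 219, 2609 and 244 without model replicates 1, 2 and 3, and it was 64, 50 and 870 without combination replicates 1, 2 and 3. When the 6 arthritic libraries were fitted as a single group, so that the difference between model and combination entered the spread, 42 genes passed, and all 42 were among the 558. None of the 558 genes changed direction when any 1 library was left out or under the other alternatives fitted to the same gene units. That is no separate support, since the genes were chosen in these same libraries. Aoc3, an amine oxidase, was named after its values were seen, since it was the only gene with a proper symbol among the 3 that passed the threshold with each of the 9 libraries left out. It was 3.51, 4.29 and 3.48 TPM in the normal libraries and 0.236 to 0.533 TPM in the arthritic ones, and fell by 1.76 on the log2 scale (adjusted p = 0.00303 in limma) in a locus shared with other gene names.

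NF-kB genes had the highest share of risen members, 44.4%, among lists with at least 12 members tested. That limit leaves out the platelet list, whose share was higher, at 54.5% of 11 members. The lists were chosen with earlier results of these data known, so this ranking describes them and is no separate support. Of 27 subunits, regulators and targets of NF-kB, all 27 passed the filter on low values, and 12 rose and none fell, with a median log2 fold change of 0.87. At an unadjusted p under 0.05 in limma, 19 were higher and 1 was lower, or 20 of 27 against 27.9% of all genes tested. In 13 of the 27 every arthritic library lay above every normal one, against 7.05% of all genes tested. The list's median was 1.07 in the model group and 0.77 in the combination group against the same normal libraries, which the 2 contrasts share. The number of risen members was 3, 0 and 1 without normal replicates 1, 2 and 3, it was 7, 15 and 7 without model replicates 1, 2 and 3, and it was 3, 3 and 12 without combination replicates 1, 2 and 3. With the arthritic libraries as a single group 4 passed.

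Nfkb2 and Relb, of the non-canonical branch, had the largest changes of the list. Nfkb2 (rn6 chromosome 1, 266049518 to 266059256), the precursor of the p52 subunit, was 54.2, 21.4 and 27.8 TPM in the normal libraries, 207, 152 and 262 TPM in the model libraries and 299, 213 and 151 TPM in the combination libraries. The lowest arthritic library thus lay well above the highest normal one, and the arthritic groups overlapped each other. The log2 fold change was 2.66 ± 0.313 (SE, adjusted p = 0.0110 in limma), or 2.62 in the model and 2.70 in the combination group, and the 95% interval of combination minus model was -0.74 to 0.88. Relb (chromosome 1, 80516266 to 80545671, in a locus with 2 gene names), the partner of p52, was 24, 17.5 and 17.4 TPM in the normal, 156, 96.2 and 180 TPM in the model and 108, 79.0 and 51.0 TPM in the combination libraries. It rose by 2.34 ± 0.265 (adjusted p = 0.0110 in limma) without overlap of arthritic and normal libraries. Nfkb1, the precursor of p50, rose from a normal mean of 82.2 to 180 TPM in the model and 230 TPM in the combination group. Rela, the p65 subunit, had means of 98.5, 260 and 138 TPM, and its arthritic minimum of 109 TPM lay below the normal maximum of 123 TPM although the gene passed the test (0.93, adjusted p = 0.0421). The c-Rel subunit gene, Rel, did not pass (1.27, adjusted p = 0.0810).

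Several inhibitors of the pathway also rose. Bcl3 (chromosome 1, 80730499 to 80745124), an inhibitor-like protein that works in the nucleus with p50 and p52, was 12.8, 4.08 and 5.84 TPM in the normal, 26.9, 83.2 and 41.2 TPM in the model and 34.6, 33.9 and 13 TPM in the combination libraries. Its lowest arthritic library, at 13 TPM, barely cleared the highest normal one. The log2 fold change was 2.14 ± 0.447 (adjusted p = 0.0390 in limma). The inhibitors Nfkbie, Nfkbia and Nfkbib rose by 1.51, 0.95 and 0.80, and Tnip1, which binds the A20 deubiquitinase, rose by 0.87. Tnfaip3, which encodes A20 itself, had means of 263, 308 and 319 TPM and did not pass (0.19, adjusted p = 0.649). Nor did Nfkbiz, another nuclear inhibitor-like protein (1.18, adjusted p = 0.0747).

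Among targets, Birc3 (chromosome 8, 6048969 to 6076598, in a locus with 2 gene names), an inhibitor of apoptosis, was 45.2, 22.3 and 24.8 TPM in the normal, 108, 146 and 149 TPM in the model and 148, 125 and 84.3 TPM in the combination libraries. All arthritic libraries lay above all normal ones, and the change was 2.05 ± 0.254 (adjusted p = 0.0114 in limma). Icam1, an adhesion molecule, rose by 1.98 from a normal mean of 10.8 TPM to 37.7 TPM in the model and 54.3 TPM in the combination group. Cd83 rose by 1.52, with normal and arthritic libraries overlapping. The kinases that activate the pathway did not pass: Map3k14, Chuk, Ikbkb and Ikbkg had log2 fold changes of 0.42, 0.66, 0.30 and 0.45, and Ikbke one of -0.77 (adjusted p = 0.0944).

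Promoter sequences were searched because the members moved together. RefSeq promoters of the GRCr8 build, from 250 bases before to 50 after each start, were matched for 10 of the 12 risen members, and those of Relb and Birc3 were not in the table. The 2 forms of the NF-kB motif searched on both strands were GGGAA, 3 bases of any kind and CC, and GGG, 2 bases of any kind and TTTCC. The forms overlap in part and were chosen after promoters had been seen. At least 1 form was found in 6 of the 10 promoters of risen members (Bcl3, Cd83, Nfkb1, Nfkb2, Nfkbia and Tnip1), in 4 of 13 promoters of members that did not pass, and in 7.06% of all 33469 promoters. A match describes the letters only and shows no binding. Below are the last 180 bases before the start of 3 risen members, 5′ to 3′ on the gene's strand with the match in capitals, for Nfkb2 at chr1:255108194-255108373 on the plus strand, Bcl3 at chr1:88613556-88613735 on the minus strand and Tnip1 at chr10:39584962-39585141 on the minus strand.
Nfkb2: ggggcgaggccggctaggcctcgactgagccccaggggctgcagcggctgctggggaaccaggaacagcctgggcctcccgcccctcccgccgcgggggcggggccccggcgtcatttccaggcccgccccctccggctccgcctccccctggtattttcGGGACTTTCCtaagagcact
Bcl3: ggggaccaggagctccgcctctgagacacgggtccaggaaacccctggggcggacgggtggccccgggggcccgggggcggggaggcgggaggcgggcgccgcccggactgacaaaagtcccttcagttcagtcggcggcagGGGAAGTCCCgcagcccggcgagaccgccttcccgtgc
Tnip1: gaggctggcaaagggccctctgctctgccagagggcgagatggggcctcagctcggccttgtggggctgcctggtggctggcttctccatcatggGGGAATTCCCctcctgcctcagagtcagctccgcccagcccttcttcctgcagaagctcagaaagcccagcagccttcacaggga

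Of 22 ATF4 targets 19 passed the filter, and 7 rose and none fell (2% of all genes tested rose), with a median of 0.79. At an unadjusted p under 0.05 in limma, 13 were higher and 0 lower, where 15.2% of all genes tested were higher. In 10 of the 19 the arthritic libraries all lay above the normal ones, as in 7.05% of all genes tested. The median was 0.84 in the model and 0.63 in the combination group. The number of risen members was 1, 0 and 0 without normal replicates 1, 2 and 3, it was 2, 12 and 5 without model replicates 1, 2 and 3, and it was 1, 0 and 7 without combination replicates 1, 2 and 3. With the arthritic libraries as a single group 1 passed. Atf4 itself had means of 632 TPM in the normal, 630 TPM in the model and 498 TPM in the combination group (log2 fold change -0.18, adjusted p = 0.352).

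Chac1 (chromosome 3, 111160205 to 111163425), which degrades glutathione, was 0.708, 0.298 and 0.532 TPM in the normal, 9.45, 2.17 and 8.5 TPM in the model and 6.03, 4.27 and 3.32 TPM in the combination libraries. Each arthritic library was above each normal one, and the change was 2.02 ± 0.360 (adjusted p = 0.0287 in limma) on the log2(TPM + 1) scale, which understates the change of so low a gene. Aars (chromosome 19, 43158999 to 43215281), which charges the alanine tRNA, was 45.6, 33.7 and 32.8 TPM in the normal, 96.2, 74.7 and 135 TPM in the model and 126, 97.7 and 86.2 TPM in the combination libraries. It rose by 1.42 ± 0.209 (adjusted p = 0.0203 in limma), by 1.40 in the model and 1.44 in the combination group. Slc7a5, a subunit of the transporter of large neutral amino acids, rose by 1.72 with means of 49.0, 270 and 104 TPM, and its partner Slc3a2 did not pass (0.68, adjusted p = 0.0609). Trib3, a pseudokinase that restrains ATF4, rose by 1.26, with 2.07 in the model and 0.45 in the combination group. Of the serine pathway, Phgdh and Psat1 rose by 0.67 and 0.72, while Psph and Shmt2 had values of 0.30 and 0.10 and did not pass. Ddit3, which encodes CHOP, had means of 124, 347 and 168 TPM and did not pass (0.91, adjusted p = 0.106).

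The ATF4 and C/EBP composite motif was searched as TGATGNAA on both strands in the same RefSeq promoters, a form chosen after promoters had been seen. It was found in 3 of the 7 promoters of risen members, in none of 11 promoters of members that did not pass and in 3.98% of all promoters. The 3 promoters with a match are shown with the match in capitals, as the last 180 bases before the start, 5′ to 3′ on the gene's strand. Chac1 lies at chr3:126795951-126796130 on the plus strand, Aars (Aars1 in RefSeq) at chr19:55908302-55908481 on the plus strand and Trib3 at chr3:161275534-161275713 on the minus strand of GRCr8.
Chac1: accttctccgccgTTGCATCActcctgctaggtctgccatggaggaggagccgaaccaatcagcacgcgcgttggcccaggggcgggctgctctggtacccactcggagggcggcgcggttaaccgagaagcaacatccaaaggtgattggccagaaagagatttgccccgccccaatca
Aars: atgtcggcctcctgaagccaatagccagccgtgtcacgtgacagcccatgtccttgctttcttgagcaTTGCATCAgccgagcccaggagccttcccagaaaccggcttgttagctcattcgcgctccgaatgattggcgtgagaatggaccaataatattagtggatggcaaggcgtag
Trib3: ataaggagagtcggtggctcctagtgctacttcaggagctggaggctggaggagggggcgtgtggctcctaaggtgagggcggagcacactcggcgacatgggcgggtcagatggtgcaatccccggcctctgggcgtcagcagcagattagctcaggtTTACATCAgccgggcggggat

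Ern1 (chromosome 10, 94588555 to 94681914), the endoplasmic reticulum sensor that splices the Xbp1 message, was 7.07, 5.92 and 6.18 TPM in the normal, 68.2, 27.6 and 142 TPM in the model and 44.4, 34.7 and 23.1 TPM in the combination libraries. The normal libraries lay close together and below all arthritic ones, and the model libraries were spread widely. Its change was 2.68 ± 0.422 (adjusted p = 0.0236 in limma). Of 22 genes of endoplasmic reticulum stress and chaperones, 3 rose and none fell, where 2% of all genes tested rose. At an unadjusted p under 0.05 in limma 10 were higher and 0 lower, where 15.2% of all genes tested were higher. The list's median was 0.32. The other 2 risen members were the chaperone Calr and the co-chaperone Dnajb11, with changes of 0.88 and 0.84. Without 1 library at a time the number of risen members was 0 to 8, the highest without model replicate 2. It was 0 without any of normal replicates 1, 2 and 3 and without combination replicates 1 and 2.

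Cars (chromosome 1, 216759366 to 216801656), which charges the cysteine tRNA, was not in the ATF4 list. It was 10.6, 7.26 and 7.31 TPM in the normal, 68.9, 23.3 and 76.6 TPM in the model and 72.3, 53.7 and 45.9 TPM in the combination libraries. All arthritic libraries lay above all normal ones, and it rose by 2.54 ± 0.348 (adjusted p = 0.0157 in limma), about equally in both groups (2.46 and 2.63).

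Among 17 genes known to respond to glucocorticoids, both metallothioneins rose and Tsc22d3 and Txnip fell. Of all genes tested 2% rose and 1.93% fell. Mt2A (chromosome 19, 11307967 to 11308740), which binds zinc and copper, had the largest rise of the genes named by rule. It was 27.4, 5.82 and 9.37 TPM in the normal, 142, 129 and 54.1 TPM in the model and 96.2, 153 and 58.0 TPM in the combination libraries. The lowest arthritic library was at 54.1 TPM and the highest normal one at 27.4 TPM. The log2 fold change was 2.96 ± 0.489 (adjusted p = 0.0279 in limma), with 3.00 in the model and 2.93 in the combination group. Mt1 rose by 1.24, from a normal range of 24.6 to 51.5 TPM to an arthritic range of 49.0 to 111 TPM.

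Tsc22d3 (X chromosome, 111842541 to 111887906), a glucocorticoid-induced leucine zipper protein, was 602, 899 and 859 TPM in the normal, 321, 282 and 282 TPM in the model and 277, 233 and 362 TPM in the combination libraries. Every arthritic library was below every normal one, and the gene fell by 1.41 ± 0.173 (adjusted p = 0.0114 in limma), by 1.39 in the model and 1.43 in the combination group. Txnip (chromosome 2, 198683159 to 198686974), which restrains glucose uptake, fell by 1.87 ± 0.201 (adjusted p = 0.0110 in limma). It was 608, 899 and 873 TPM in the normal, 113, 154 and 86.6 TPM in the model and 462, 358 and 371 TPM in the combination libraries. All 3 groups of Txnip were apart, with the combination group in the middle. Over the 17 genes 9 values were positive and 8 negative, with a median of 0.058 whose sign changed under 4 of the 22 alternatives.

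The other large rises belonged to no single list. Cks2 (chromosome 17, 13587665 to 13594542), which binds cyclin-dependent kinases, was 31.1, 13.3 and 16.9 TPM in the normal, 163, 102 and 286 TPM in the model and 82.9, 77.7 and 56.2 TPM in the combination libraries, and was higher in every arthritic library than in any normal one. It was the only risen gene of 20 in the cell cycle list, where 2% of all genes tested rose, and the list's median was 0.14. Cadm4, a cell adhesion molecule, was 1.07 to 3.72 TPM in the normal and 8.84 to 22.7 TPM in the arthritic libraries, with a median of 16.1 TPM in the latter. Tmem163, a zinc transporter, was 10.5 to 14.9 TPM in the normal and 21.2 to 80.2 TPM in the arthritic libraries. Kdm6b, a demethylase of histone H3 lysine residues, rose by 2.05, from a normal mean of 9.90 TPM to 103 TPM in the model and 23.3 TPM in the combination group. Ell2, an elongation factor of RNA polymerase II, rose by 2.18, and model replicate 2, at 17.9 TPM, was close to the normal maximum of 15.7 TPM. Clec4d, a lectin receptor of myeloid cells, and Pik3ap1, an adaptor of PI3 kinase, rose by 2.30 and 2.12 from normal maxima of 0.941 and 1.26 TPM. Their means were 5.03 and 3.68 TPM in the model and 13 and 9.18 TPM in the combination group, whose libraries overlapped, and combination minus model did not pass (adjusted p = 0.131 and 0.156 in limma).

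**Figure D1:**
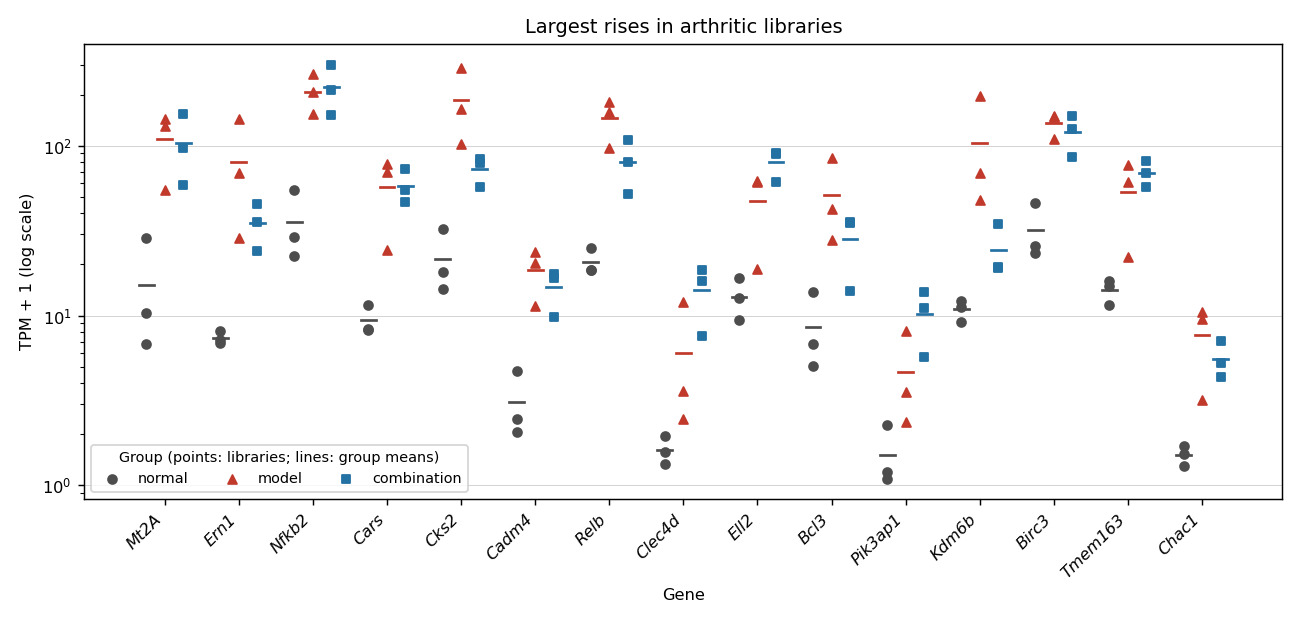
TPM + 1 on a log scale (vertical axis) of the 15 largest rises, by gene (horizontal axis), with a point for each library and a line for each group mean. For Nfkb2 the arthritic libraries sit at 151 TPM or more and the normal libraries at 54.2 TPM or less, while for Kdm6b the model group stands above the combination group.

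The largest falls included genes of T cells as well as genes of other cells. Cd96 (chromosome 11, 57108956 to 57183270), a receptor of T and NK cells that binds the poliovirus receptor, was 18, 18.3 and 22.2 TPM in the normal, 4.46, 11.3 and 7.25 TPM in the model and 5.06, 4.93 and 4.57 TPM in the combination libraries. No arthritic library reached the normal range, and it fell by 1.56 ± 0.230 (adjusted p = 0.0203 in limma). Ctla4 (chromosome 9, 67699379 to 67706065), the inhibitory receptor that competes with Cd28, was 45.2, 45.1 and 47.6 TPM in the normal, 20.5, 8.05 and 8.42 TPM in the model and 30.8, 28.0 and 32.4 TPM in the combination libraries. It fell by 1.26, by 1.94 in the model and 0.58 in the combination group. Of 15 costimulators and inhibitory receptors these 2 fell and Tnfrsf9, a costimulatory receptor known as 4-1BB, rose by 1.09, with a median of -0.27. Over all genes tested 1.93% fell and 2% rose.

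Bbof1 (chromosome 6, 108123816 to 108149607), a gene of motile cilia, had the largest fall of the genes named by rule. It was 14.7, 8.31 and 10.6 TPM in the normal, 0.837, 0.732 and 0.710 TPM in the model and 0.421, 4.57 and 0.460 TPM in the combination libraries. Only combination replicate 2 was above 1 TPM among the arthritic libraries, and the log2 fold change was -2.58 ± 0.406 (adjusted p = 0.0236 in limma). Lrrc23, also of cilia, fell by 1.63 from 21.3 to 25.2 TPM in the normal to 4.50 to 16.5 TPM in the arthritic libraries.

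Several falls were uneven within the model group. Ssbp3, a cofactor of LIM-domain transcription, was 112, 139 and 125 TPM in the normal, 30.8, 107 and 40.2 TPM in the model and 38.1, 36.4 and 33.4 TPM in the combination libraries, so that model replicate 2 lay next to the normal range. Anxa6, a calcium-dependent membrane-binding protein, had the same order, with 84.6 TPM in model replicate 2 beside 21.9 to 37.5 TPM in the other arthritic libraries and a normal minimum of 92.9 TPM. The falls of Ssbp3, Anxa6 and Gpr155 were 1.52, 1.5 and 1.5 on the log2 scale. Paqr5, a membrane progestin receptor, fell by 1.55, and Sap25, of a histone deacetylase complex, by 1.46. The histone gene Hist1h4m (chromosome 4, 170763044 to 170801002) was 40.7, 64.2 and 44.2 TPM in the normal, 20.3, 12.6 and 18.7 TPM in the model and 15.5, 10.6 and 20.7 TPM in the combination libraries, a fall of 1.55 that was similar in both groups. A 7SK locus of 280 bases, of a noncoding RNA that restrains transcription elongation, fell by 1.53, but 424 loci carry that name and reads could be divided among near-identical copies.

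**Figure D2:**
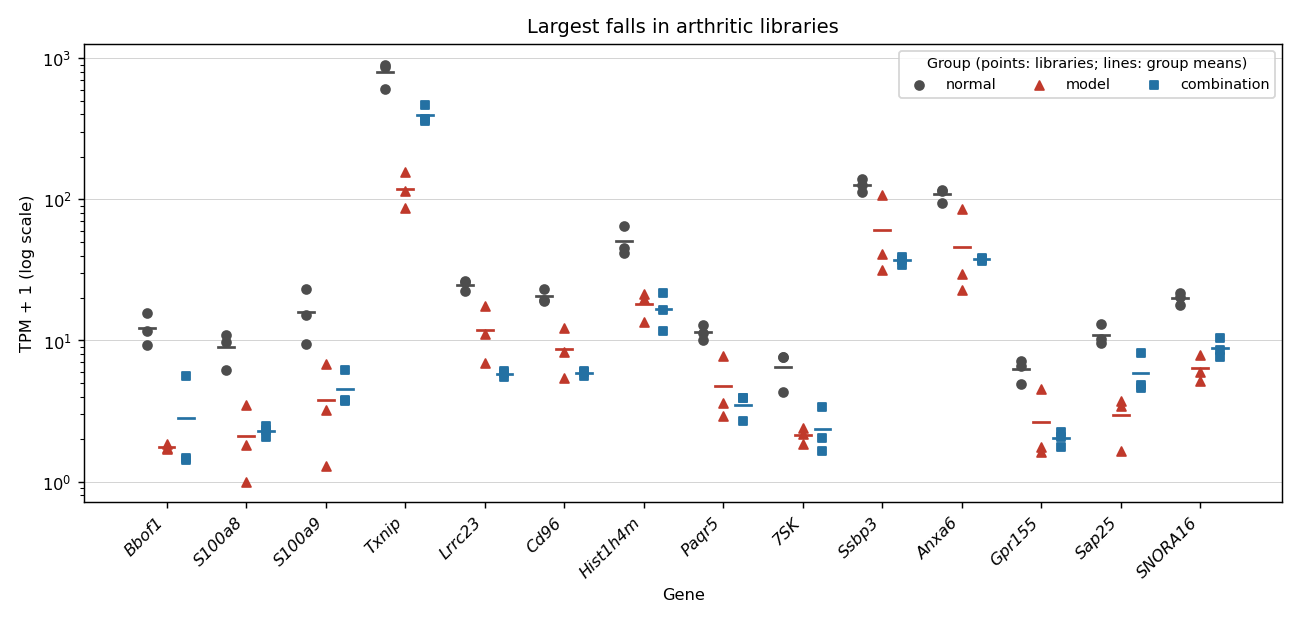
TPM + 1 on a log scale (vertical axis) of genes among the 15 largest falls, by gene (horizontal axis), with a point for each library and a line for each group mean. For Txnip the combination libraries lie between the normal and the model libraries, and for Ssbp3 and Anxa6 1 model library lies next to the normal ones.

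For part of the genes the interval between the arthritic groups kept their difference below the size of the pooled change. That does not show the groups to be equal. A gene outside this bound may only have a wide interval, with 3 libraries a group. In 305 of the 558 genes (54.7%) the 95% interval of combination minus model lay within plus or minus the size of the pooled change. The interval was not adjusted for the number of genes. In these genes both groups had the direction of the pooled change, but the sizes could differ. Cks2, for example, had values of 3.07 in the model and 1.84 in the combination group, and Lrrc23 of -1.17 and -2.09. Their 95% intervals of combination minus model, -2.11 to -0.35 and -1.57 to -0.27, were negative throughout. By another measure, not comparable with that share, combination and model differed past the threshold in 4.49% of all genes tested. The 305 genes comprised 147 higher and 158 lower genes. By the interval measure the largest pooled rises were those of Mt2A, Ern1, Nfkb2, Cars, Cks2, Cadm4, Relb and Ell2. The largest falls by it were those of Bbof1, S100a8, S100a9, Lrrc23, Cd96, Hist1h4m, Paqr5 and the 7SK locus. Other genes passed with unequal values in the arthritic groups. Smad7 was 22.7, 27.7 and 44.1 TPM in the normal, 209, 238 and 482 TPM in the model and 92.8, 52.7 and 30.9 TPM in the combination libraries. Its pooled change of 2.00 thus averaged 3.21 in the model and 0.79 in the combination group, where 1 of 3 libraries lay within the normal range. Jund, an AP-1 subunit, had a pooled change of -0.40 that averaged 0.18 and -0.98, with 1141 to 1251 TPM in the combination libraries and 2252 to 2815 TPM in all others. Gadd45g, a growth arrest gene, rose by 1.45 with 2.51 in the model and 0.38 in the combination group.

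**Figure D3:**
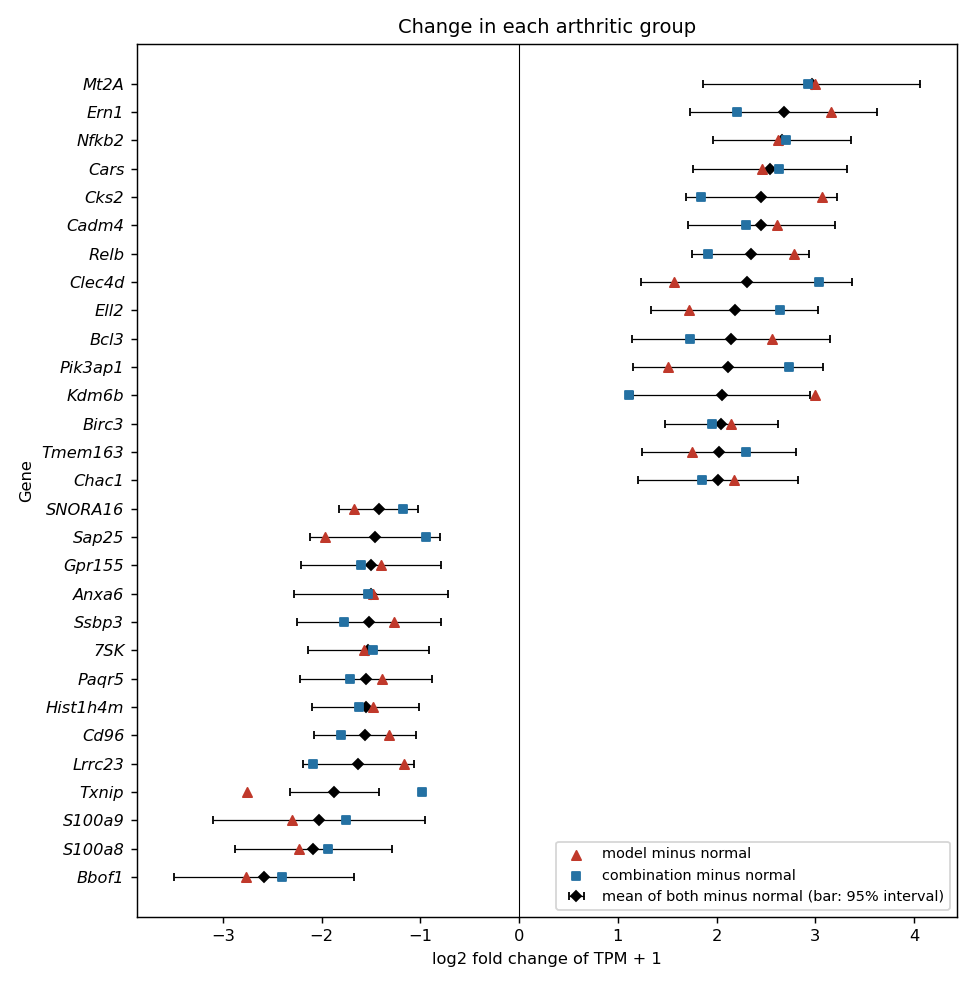
Log2 fold change of TPM + 1 (horizontal axis) against the normal libraries for genes among the 15 largest rises and 15 largest falls (vertical axis), as the mean of both arthritic groups with its 95% interval (diamonds) and for each arthritic group (triangles and squares). For Nfkb2, Mt2A and Cars the symbols nearly coincide, and for Txnip, at -2.76 and -0.98, they stand apart.

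Of 19 genes of the T cell receptor and T cell identity 16 had negative values, but Cd7 alone passed, with a fall of 0.70, and 20 of 21 list names were found in the tables. Cd7, a surface glycoprotein of T cells, was 36.8, 32.9 and 31.8 TPM in the normal and 19.1 to 21.3 TPM in the arthritic libraries. The list's median was -0.45, and 10 members were lower and 2 higher at an unadjusted p under 0.05 in limma, or 63.2% of them against 27.9% of all genes tested. The value of Cd3e was -0.45 (adjusted p = 0.160) and that of Cd28 was -0.64 (adjusted p = 0.0893). None of the 13 naive T cell genes passed (3 higher and 1 lower at an unadjusted p under 0.05 in limma), and their median was 0.10. Of all genes tested 3.94% passed. Of 13 activation genes 2 rose and 2 fell, where 2% of all genes tested rose and 1.93% fell. The early activation marker Cd69 fell by 0.86, from 197 to 228 TPM in the normal to 83.8 to 152 TPM in the arthritic libraries.

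Each list of a T helper subset had at most 1 gene past the threshold, where 3.94% of all genes tested passed. With 7 to 11 genes tested, such counts cannot be told from that share. None of 8 Th17 genes passed (4 higher and 0 lower at an unadjusted p under 0.05 in limma). Of the 8 values 7 were positive, and the median was 0.68. Rora and Stat3, transcription factors of these cells, did not pass at 0.79 (adjusted p = 0.0873) and 0.82 (adjusted p = 0.0842). None of 7 Th2 genes passed (0 higher and 1 lower at an unadjusted p under 0.05 in limma), and their median of 0.010 changed sign under 7 of the 22 alternatives. Il18r1, a receptor chain for interleukin 18, rose by 0.74 from 8.17 to 10.4 TPM in the normal to 11.6 to 20.8 TPM in the arthritic libraries. It alone passed of 10 Th1 genes, of which 9 had positive values, with a median of 0.45. Of 11 regulatory T cell genes Ctla4 alone passed, and Foxp3, their defining factor, had means of 18, 24.7 and 24.5 TPM and did not pass (0.43, adjusted p = 0.153). Il6st, the shared signalling chain of the interleukin 6 family, rose by 0.75 as the only one of 10 T follicular helper genes to pass.

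Cytokine and signalling lists had 1 to 3 members that passed, where 3.94% of all genes tested did. Lta (chromosome 20, 4852496 to 4854677), a lymphotoxin that signals through TNF family receptors, was 2.43, 1.64 and 2.32 TPM in the normal, 12.8, 14.4 and 18.5 TPM in the model and 5.74, 5.52 and 2.87 TPM in the combination libraries. The 3 groups were apart, with the combination group between the others, and Lta rose by 1.60 as 1 of 14 inflammatory cytokine and chemokine genes. Ifngr1, a chain of the interferon gamma receptor, rose by 1.38, from 111 to 163 TPM in the normal to 187 to 677 TPM in the arthritic libraries. Irf1 and Gbp5 rose by 1.21 and 0.84 and Mx2 fell by 0.97 among 25 interferon-stimulated genes, whose median was -0.059. All 20 TGF-beta signalling genes that passed the filter had positive values and a median of 0.67, but only Smad7, an inhibitor of the pathway, passed the test. The median of that list was 1.05 in the model and 0.24 in the combination group.

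Of 25 immediate early genes 2 rose and 2 fell, and at an unadjusted p under 0.05 in limma 12 were higher and 2 lower. Over all genes tested 2% rose and 1.93% fell, and 15.2% were higher and 12.6% lower at that unadjusted p. The list's median was 0.69, with 0.75 in the model and 0.22 in the combination group. Ier5 (chromosome 13, 72742210 to 72744303), an early gene linked to heat shock factor, was 251, 195 and 237 TPM in the normal, 751, 734 and 833 TPM in the model and 498, 428 and 323 TPM in the combination libraries. Again the 3 groups did not overlap, and the rise was 1.31 ± 0.151 (adjusted p = 0.0110 in limma). Rgs1, which dampens chemokine receptor signalling, rose by 0.75, and Cd69 and Jund were the 2 that fell. Jund was lower in the combination group alone (-0.98), with 0.18 in the model group.

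The metabolic lists that follow had 1 or 2 members past the threshold, where 3.94% of all genes tested passed. Of 30 autophagy and mTOR genes Ulk1, the kinase that starts autophagy, and Rragd, a GTPase that recruits mTOR to lysosomes, rose by 1.76 and 1.82 and none fell (11 higher and 0 lower at an unadjusted p under 0.05 in limma). Ulk1 was 14.1 to 18.7 TPM in the normal and 36.8 to 101 TPM in the arthritic libraries, by 1.75 in the model and 1.77 in the combination group. Of 25 glycolysis and glucose uptake genes Txnip and Tpi1, triosephosphate isomerase, fell and none rose, with a median of -0.28. Srebf1, a transcription factor of lipid synthesis, rose by 1.13 as 1 of 24 cholesterol synthesis genes, with 1.90 in the model and 0.36 in the combination group. Nfe2l2, a transcription factor of the oxidative stress response, rose by 0.76 and Prdx1, a peroxiredoxin, fell by 0.57 among 20 genes.

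Ribosomal protein genes (94 tested) had a median of -0.10, with 1 risen and 2 fallen, where 2% of all genes tested rose and 1.93% fell. At an unadjusted p under 0.05 in limma 2 were higher and 20 lower. In 20 of the 94 every arthritic library lay below every normal one, against 5.82% of all genes tested, and in none above. Rplp2, of the ribosomal stalk, fell by 0.63, while a low copy of Rps2, 1 of 2 loci of that name, rose by 1.29. Ndufb9, a subunit of respiratory complex I, was the only 1 of 75 nuclear oxidative phosphorylation genes to pass, with a rise of 0.57. Of all genes tested 3.94% passed. None of 37 proteasome genes, 19 heat shock genes or 11 mitochondrially encoded genes passed in limma, and at an unadjusted p under 0.05 their numbers higher and lower were 14 and 2, 1 and 1, and 1 and 4, where all genes tested had 15.2% higher and 12.6% lower. The remaining lists each had at most 2 members past the threshold in either direction, and their counts stand in the plot of list medians.

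**Figure D4:**
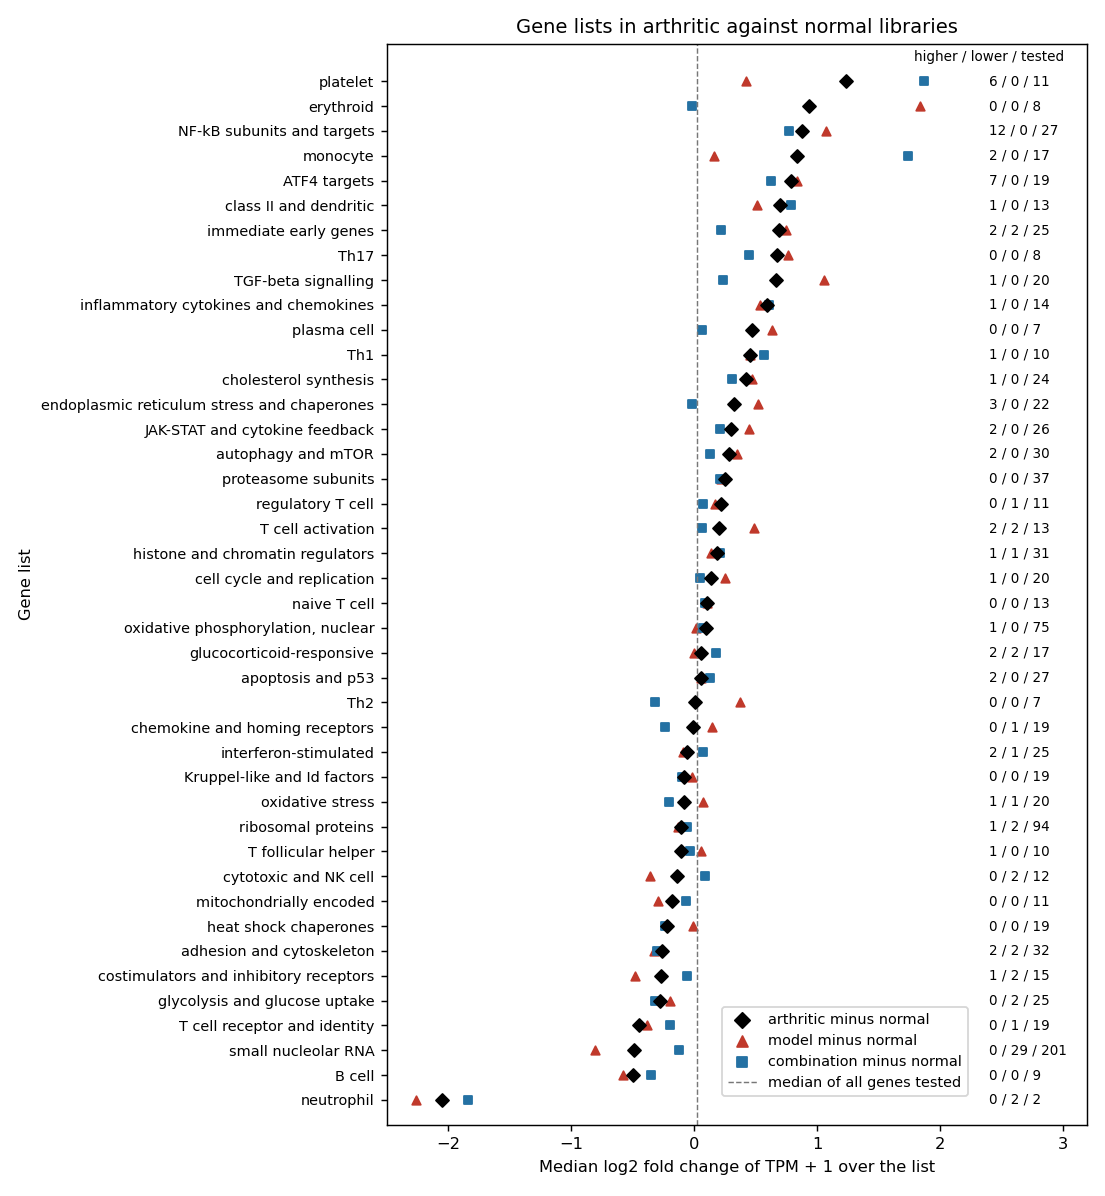
Median log2 fold change of TPM + 1 (horizontal axis) of each gene list (vertical axis) for the pooled arthritic libraries (diamonds) and for each arthritic group (triangles and squares), with the numbers of members higher, lower and tested at the right. The NF-kB list has 12 risen of 27 with a median of 0.87, and the dashed line marks the median of all genes tested, 0.024.

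Small nucleolar RNAs, which guide the chemical modification of ribosomal RNA and are cut from introns of host genes, made up 29 of the 274 lower genes. Of 201 tested loci 29 fell and none rose, with a median of -0.49, and at an unadjusted p under 0.05 in limma 100 were lower and 5 higher, where 12.6% and 15.2% of all genes tested were. Of all genes tested 1.93% fell. The list has 168 names at 1584 loci, so that most loci were below the filter, and a locus can have passed it only through the group where it was high. The median was -0.81 in the model and -0.13 in the combination group. SNORA16 (chromosome 5, 150490192 to 150490327, 136 bases) was 20.8, 19.2 and 16.8 TPM in the normal, 4.13, 6.90 and 4.98 TPM in the model and 9.37, 6.69 and 7.55 TPM in the combination libraries. All arthritic libraries lay below all normal ones, and it fell by 1.42 ± 0.177 (adjusted p = 0.0114 in limma). SNORD49, SNORA26 and SNORA68 fell by 1.16, 1.21 and 0.98, with larger falls in the model group (1.61, 1.90 and 1.40) than in the combination group (0.71, 0.53 and 0.57). These names lie at 2 to 20 loci each, and TPM is divided by their short length. The part of both in these values was not tested. The number of fallen loci was 0, 0 and 1 without normal replicates 1, 2 and 3, it was 16, 52 and 18 without model replicates 1, 2 and 3, and it was 5, 1 and 22 without combination replicates 1, 2 and 3.

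Markers of other blood cells also moved, and in bulk RNA fewer cells of a type and less RNA per cell cannot be told apart. S100a8, a calcium-binding protein of neutrophils and monocytes, was 9.99, 5.13 and 8.82 TPM in the normal, 2.48, 0.829 and 0 TPM in the model and 1.31, 1.49 and 1.06 TPM in the combination libraries. Its partner S100a9 was 22.3, 8.37 and 14.2 TPM in the normal and 0.284 to 5.78 TPM in the arthritic libraries. They fell by 2.08 and 2.02 (adjusted p = 0.0282 and 0.0496 in limma) and were the only 2 of 16 neutrophil units to pass the filter. Platelet genes were higher, with 6 of 11 risen and none fallen, where 2% of all genes tested rose. Only these 11 of 18 platelet units passed the filter on low values, and a unit can have passed it only through the group where it was high. In 2 of the 11 every arthritic library lay above every normal one, against 7.05% of all genes tested. The median of the platelet genes was 1.24, but this was 0.42 in the model and 1.87 in the combination group. Itga2b, the platelet integrin, was 2.50, 3.47 and 2.63 TPM in the normal, 4.50, 5.18 and 4.91 TPM in the model and 15.1, 15.3 and 9.58 TPM in the combination libraries. The number of risen platelet genes was 0, 0 and 3 without normal replicates 1, 2 and 3, it was 5, 7 and 5 without model replicates 1, 2 and 3, and it was 1, 1 and 5 without combination replicates 1, 2 and 3.

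Monocyte genes had 2 of 17 risen, where 2% of all genes tested rose. Their median was 0.83, with 0.16 in the model and 1.74 in the combination group. Fcer1g, the signalling chain of Fc receptors, was 4.19, 0.241 and 0.525 TPM in the normal, 0.428, 0.754 and 0.608 TPM in the model and 54.6, 39.8 and 22.2 TPM in the combination libraries, so that its pooled rise of 1.85 came from the combination group. Klrk1 and Klrd1, receptors of NK and cytotoxic cells, fell by 1.09 and 1.41. They were the only 2 of 12 such genes to pass, where 1.93% of all genes tested fell. Of the 12 genes 5 had positive values, and the median was -0.14, with -0.36 in the model and 0.084 in the combination group. Summed TPM of that list was 133 to 204 in the normal, 77.7 to 132 in the model and 198 to 252 in the combination libraries. No B cell, plasma cell or erythroid gene passed of 9, 7 and 8 in limma, where 3.94% of all genes tested passed. At an unadjusted p under 0.05 in limma the numbers higher and lower were 0 and 2, 2 and 0, and 4 and 0. Of all genes tested 15.2% were higher and 12.6% lower at that unadjusted p.

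Summed TPM of 9 marker lists was tested by two-sided exact permutation of 6 and 3 libraries (84 arrangements), of which the smallest possible p is 0.012. No list passed after adjustment over the 9, and a single list at that smallest p could not have passed, since it adjusts to 0.107. The neutrophil sum was 16.5 to 37.2 TPM in the normal, 1.78 to 10.3 TPM in the model and 6.48 to 9.86 TPM in the combination libraries, but S100a8 and S100a9, described above, made up most of it in each normal library, so that it is no separate measure. The sum for T cell identity was 5000 to 5842 TPM in the normal and 3640 to 4917 TPM in the arthritic libraries (-0.26, exact permutation p = 0.036, adjusted p = 0.161). The platelet sum was 40.7 to 62.6 TPM in the normal, 44.0 to 73.1 TPM in the model and 148 to 213 TPM in the combination libraries, and the monocyte sum 156 to 367, 175 to 324 and 535 to 963 TPM. The erythroid sum ran from 96.7 to 1159 TPM in the normal, from 2488 to 16263 TPM in the model and from 296 to 906 TPM in the combination libraries. No unit of these 9 lists was at 0 in all libraries. Whether these markers account for part of the changes in the NF-kB, ATF4 or T cell lists was not tested.

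**Figure D5:**
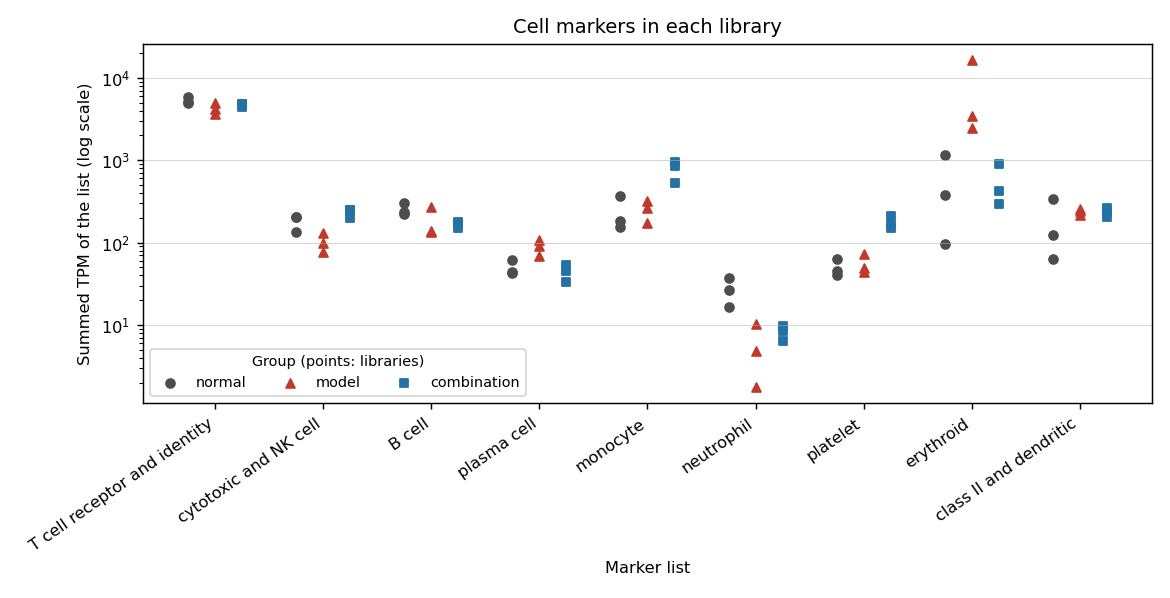
Summed TPM on a log scale (vertical axis) of 9 marker lists (horizontal axis), with a point for each library coloured by group. The neutrophil sums of the arthritic libraries, at 10.3 TPM or less, all lie below the normal ones, while platelet and monocyte sums are high in the combination libraries alone.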

How the data were processed

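The authors' deposited tables, 1 per library, list TPM, FPKM and coverage for each of 80092 transcripts as other text attributes, made by StringTie 1.3.3b per the file headers, and HISAT2 and the rn6 genome are named in the submitters' processing notes. Coverage served only to compute depth, with 86.7% to 89.0% of aligned bases in listed transcripts. Counts were not used, so no counting intervals were derived. TPM was summed per gene name within a locus (36858 units), and where a locus held more than 1 name, unnamed transcripts went to the name whose exons they overlapped. Units that averaged 1 TPM or more (14175 of the 30032 above 0) were fitted as log2(TPM + 1) in limma 3.58.1 (R 4.3.3) with 1 coefficient per group and an intensity trend. The contrast was the mean of the model and combination coefficients minus normal. P-values were adjusted over all genes by the Benjamini-Hochberg method with a threshold of 0.05. Fold changes on this scale understate changes of low genes.

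The members, gene lists and rules were chosen with earlier results of these data known. Named genes were the 15 largest rises and falls past the threshold, without overlap of arthritic and normal libraries, at 5 TPM or more in the higher group and with a proper symbol, the 8 largest each way among genes alike in both arthritic groups, and up to 4 members per list. An accession-like name was also taken as no proper symbol, a choice made after it was seen, and some genes are not reported here. In simulated data of the same size, 34% of 2-fold and 85.2% of 4-fold changes were recovered, with 6.26% false calls. The simulated noise was normal and equal in all libraries, and both arthritic groups changed alike. In the real data 4.49% of genes differed between the arthritic groups, so these rates need not hold for them. Residuals of libraries with the same number correlated by -0.14 to 0.055, and for 1 of 9 libraries the closest was of the same number, so libraries were not paired. Promoters and their coordinates came from a RefSeq table of GRCr8, a build other than that of the tables, and were matched by symbol. Python 3.11.15 and matplotlib 3.10.9 were also used. Alternatives covered pseudocounts of 0.1 and 5, filters, FPKM, scaling, locus sums, gene length, the model fitted, a replicate block and omission of each library.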

Additional observations from a re-analysis of the deposited data

Results flagged for a closer look

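Among 101 named genes, 8 had 1 arthritic library far from the other 5, by a gap of more than 0.625 of the range of the 6. In 6 draws from 1 normal sample chance gives such a library about 1 time in 20. These libraries form 2 groups and the genes were chosen in them, so that rate need not hold. The library was model replicate 2 in 7 of them. It was the highest of the 6 arthritic libraries for Cd37 (224 TPM), Gpr155 (3.50 TPM), Itgb7 (46.2 TPM), Paqr5 (6.82 TPM) and Ssbp3 (107 TPM), genes that were lower in the other arthritic libraries. It was the lowest for Ell2 (17.9 TPM) and Tmem163 (21.2 TPM), which were higher in the others. In each of these 7 genes it was thus the arthritic library on the side of the normal ones. For Bbof1 combination replicate 2 was the highest, at 4.57 TPM.

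In 23 named genes the arthritic groups differed from each other at an adjusted p under 0.05 in limma, in the contrast of combination with model. The combination group was higher in Fcer1g (4.56 on the log2 scale), Clec1b (2.31), Nrgn (1.96), Treml1 (1.43) and Itga2b (1.26), genes of myeloid cells and platelets. It was also higher in Txnip (1.77), Ctla4 (1.36), Klrk1 (0.91), SNORA26 (1.38) and SNORA68 (0.83), which were lower in the model than in the normal group. It was lower in Smad7 (-2.41), Klf10 (-2.38), Gadd45g (-2.14), the Rps2 copy (-1.57), Lta (-1.53), Srebf1 (-1.53), Klf2 (-1.47), Irf4 (-1.31), Xbp1 (-1.19), Jund (-1.16), Calr (-1.11), Ier5 (-0.91) and Prdx1 (-0.69). For these genes the pooled value averages unequal changes.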

How the results depend on the processing

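The count of 558 genes became 359 and 557 with pseudocounts of 0.1 and 5, 33 of 30032 genes with no filter, 370 with a mean of at least 5 TPM, 1290 with FPKM, 1368 with median-ratio scaling, 1163 without haemoglobin, mitochondrial and ribosomal protein genes, 42 with the arthritic libraries as 1 group and 4168 with array weights, a fit whose weights did not converge. A replicate block left 52 genes, although equal numbers showed no pairing. Leaving out 1 library gave 7 (without normal replicate 2) to 2609 genes (without model replicate 2). The share of higher genes was 50.9%, and 68.3% without combination replicate 3. The monocyte median was 1.56 with a pseudocount of 0.1 and ranged from 0.58 to 1.61 without 1 library. The platelet median was 0.60 with a pseudocount of 5 and 0.71 with locus sums. The median of small nucleolar RNAs was -0.28 with a pseudocount of 5 and 0.19 over the 4 loci of at least 300 bases. Medians of the NF-kB, ATF4 and T cell identity lists kept their sign under every alternative. None of the 82 named genes past the threshold reversed its direction, and reversals of the other named genes were not counted. Of the 558 genes 22 passed in at least 18 of 21 alternatives. Beyond the alternatives' own construction, the cause of these shifts was not tested. With 3 libraries a group, recovery of 1.5-fold changes in simulation was 6.4%, so a gene that did not pass may still differ.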

Other observations

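Gene groups chosen after the values were seen are described here by counts and medians, with no test of the group. Of 20 cytosolic tRNA synthetases 7 rose and none fell, with a median log2 fold change of 0.58 beside 2% of genes risen and a median of 0.024 over all genes tested. They were Cars and Aars, described above, and Iars (1.63), Tars (0.95), Mars (0.92), Sars (0.79) and Yars (0.73), which charge the tRNAs of isoleucine, threonine, methionine, serine and tyrosine. Of 64 genes of lysosomes and their TFE transcription factors 9 rose and none fell, against the same 2% of all genes, with a median of 0.39. Tfe3, a master regulator of lysosomal genes, rose by 1.34 from a normal mean of 9.60 TPM to 31.6 TPM in the model and 20.9 TPM in the combination group. Gaa, which digests lysosomal glycogen, rose by 1.49 and Atp6v1d, a subunit of the proton pump, by 1.32.

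Of 14 circadian clock genes 3 rose and none fell, where 2% of all genes tested rose, with a median of 0.58. Bhlhe40, a transcriptional repressor, averaged 18.4 TPM in normal, 158 TPM in model and 41.2 TPM in combination libraries, and Per2 and Per3, of the negative limb of the clock, rose by 1.55 and 0.67. The labels give no time of day of blood collection, so its part was not tested. Of 35 replication-dependent histone genes 8 fell and none rose, where 1.93% of all genes tested fell, with a median of -0.71, and 34 of the 35 had negative values. Their messages lack the usual poly(A) tail, and how the library step chose RNA is not described, so its part was not tested. Several of these histone names lie at more than 1 locus.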
